A study of Caenorhabditis elegans with 22 samples.

Results

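The right arm of the X chromosome is the outer length of X from position 11810001 to its end at 17718942 on build ce11, when the chromosome is divided into 3 equal lengths. Its members are the 591 bins of 10 kb that start in this interval, out of 10030 nuclear bins, or 5.89% of them. The rule uses position and no measured value, but the arm was chosen with earlier results of these data known. Its bins span 5.909 Mb with 884 protein-coding genes, 118 tRNA genes, 22 miRNA genes and 61 piRNA genes in the RefSeq annotation of the same assembly. All 591 bins passed the filter on low counts, against 9960 of the 10030.

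The libraries are DamID of Caenorhabditis elegans L1 larvae, in which a bacterial adenine methyltransferase (Dam) marks GATC sites near the protein it is fused to. In Dam::EMR-1 the enzyme sits on the nuclear envelope protein emerin, and the freely diffusing GFP::Dam gives the accessibility of the same DNA. Both fusions came from the uninduced heat-shock promoter hsp-16.41, after FLP recombination driven by the elt-2 promoter, so that trace levels were made in intestine only. The 8 groups are each fusion in 4 backgrounds: the wild-type genotype on control RNAi (strains GW1377 for Dam::EMR-1 and GW1378 for GFP::Dam), the same strains on mrg-1 RNAi, the cec-4(ok3124) deletion on control RNAi (GW1379 and GW1380), and cec-4(ok3124) on mrg-1 RNAi, called the combination below. Mothers were fed RNAi bacteria for 66 h at 20 °C and their L1 progeny spent 2.5 h in liquid culture with Dam- bacteria. The RNAi was reported to give 30% to 50% sterile F1 adults after feeding over generations, so it was partial. Each group holds biological replicates 1, 2 and 3, except that mrg-1 RNAi alone has replicates 2 and 3 of each fusion, since the submitters left out a replicate on technical grounds. Every p-value below rests on the spread among these libraries. The limma fit shares its spread over 18 chromosome parts of the same pairs, which are not independent, so its p-values are too small. In the main fit 1 spread was shared in full (126 degrees of freedom). On centred values and on summed reads it was shared in part (19.5 and 14.8 degrees of freedom). Beside its calls stands the adjusted p of a limma fit with the arm's own spread and 7 residual degrees of freedom, added after seeing the data.

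Heterochromatin in C. elegans collects on the arms of the autosomes, carries methylated H3K9 and is held at the nuclear periphery in part by CEC-4, a chromodomain protein of the inner nuclear membrane. MRG-1 is a chromodomain protein of the MRG15 family that binds chromatin of expressed genes marked by H3K36 methylation. The X chromosome differs from the autosomes in hermaphrodites, since the dosage compensation complex binds both X copies and lowers their transcription. A high ratio of Dam::EMR-1 to GFP::Dam marks DNA that contacts the membrane more than its accessibility alone would give, and a low ratio marks interior, accessible DNA.

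The 22 libraries held 2240348 to 18553316 nuclear reads, of which 73085 to 930691 fell on the X right arm. The median 10 kb bin of the arm held 50 to 600 reads, and 0 to 42 of its bins held none in a given library. At 1 kb, 16.5% to 61.6% of the arm's bins were empty, so the arm is described at 10 kb and above. The lowest totals were those of wild-type Dam::EMR-1, at 2240348 to 3082222 reads, against 4348243 to 8183134 in cec-4, 3942253 to 5031894 with mrg-1 RNAi and 3335730 to 11159999 in the combination. On the arm, though, the sparsest library was Dam::EMR-1 of mrg-1 RNAi replicate 3, despite its 5031894 reads. It had 42 empty 10 kb bins, a median bin of 50 reads and 61.6% empty 1 kb bins. Replicate 2 of that group had 1, 101 and 28.7%, and Dam::EMR-1 of cec-4 replicate 1 had 36, 220 and 60.6%. No check of the genotype came from the cec-4 locus (chromosome IV, 7576181 to 7577325), since the labels give no breakpoints. Its 10 kb bin held 83.2 to 197 CPM (counts scaled to the nuclear total) in the 6 GFP::Dam libraries of cec-4 strains and 110 to 248 in the 5 others, which overlap.

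In wild type the X right arm was lower in Dam::EMR-1 than the genome as a whole, though less so than the X centre. Each replicate pair, Dam::EMR-1 against GFP::Dam of the same number, was summarised by its pair value. This is log2 of the CPM ratio, after adding 1 to both CPM, averaged over bins. Over the right arm the wild-type pair values were −0.61, −1.35 and −0.92 for replicates 1, 2 and 3, a mean of −0.96 ± 0.37 (SD, n = 3). The same pairs averaged −0.33 ± 0.39 over all nuclear bins, −0.76 ± 0.17 over the X left arm, −2.36 ± 0.29 over the X centre and 0.83 ± 0.47 over the autosome arms (SD, n = 3). The right arm lay below the left arm in every wild-type pair, by −0.0065, −0.40 and −0.17, a spread that reaches close to 0 in replicate 1.

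The order of the chromosome parts was shared by all 11 pairs. The right arm stood below the mean of the autosome arms by −0.98 to −2.50, below the mean of all bins by −0.38 to −1.39, and above the X centre by 0.72 to 1.599. It stood below the X left arm by −0.0037 to −0.70, in 11 of 11 pairs. Each of these 4 differences had an exact two-sided sign-flip p of 0.0009766 over the 11 pairs, also after Benjamini-Hochberg adjustment, which is the smallest p that 11 pairs can give. Pairs of the same replicate number were grown in parallel and of the same background are replicates, so the 11 are not fully independent.

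**Figure D1:**
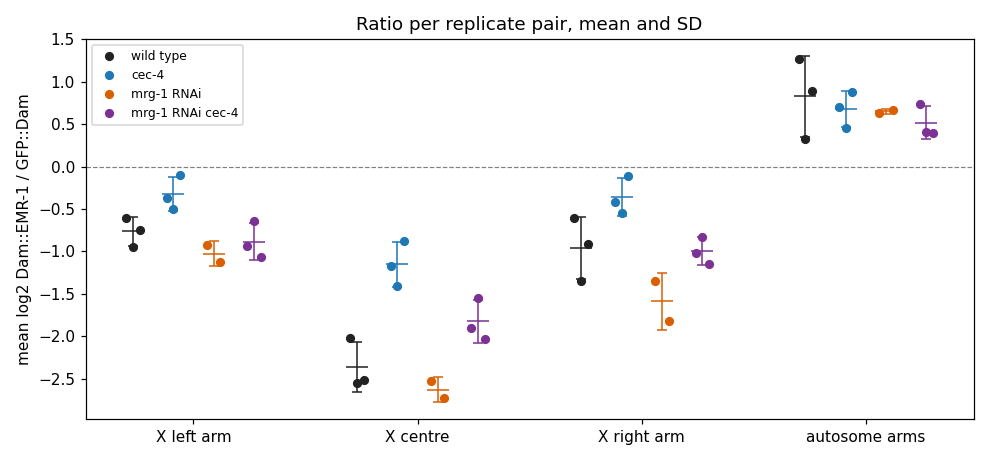
Mean log2 ratio of Dam::EMR-1 to GFP::Dam per replicate pair (y axis) over the X left arm, X centre, X right arm and autosome arms (x axis), with points for pairs and bars for the mean and SD. On the right arm the mrg-1 RNAi pairs (−1.35 and −1.82) are the lowest or level with the lowest wild-type pair (−1.35), and the cec-4 pairs (−0.11 to −0.54) are the highest.

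By single 10 kb bins in wild type, 44 of the 591 arm bins were higher in Dam::EMR-1 and 210 were lower (edgeR, Benjamini-Hochberg adjusted p below 0.05). Over all tested bins 25.4% were higher and 29.0% lower, against 7.45% and 35.5% on the arm. With the replicate number as a block the higher count was 78, and without GFP::Dam of replicate 1, 2 or 3 it was 29, 27 and 20. The fitted log2 ratio of the arm's bins had a median of −0.81, against −0.11 for all bins. In windows of 100 kb, 2 of 59 arm windows were higher and 40 lower, where 34.7% and 42.2% of all windows were. The arm was not uniform: the pair values of its bins, averaged over the 3 wild-type pairs, ran from −3.85 at the 10th percentile to 1.28 at the 90th. That is wider than the X centre at its upper end (−4.88 to −0.12) and narrower than the X left arm (−4.14 to 2.10).

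**Figure D2:**
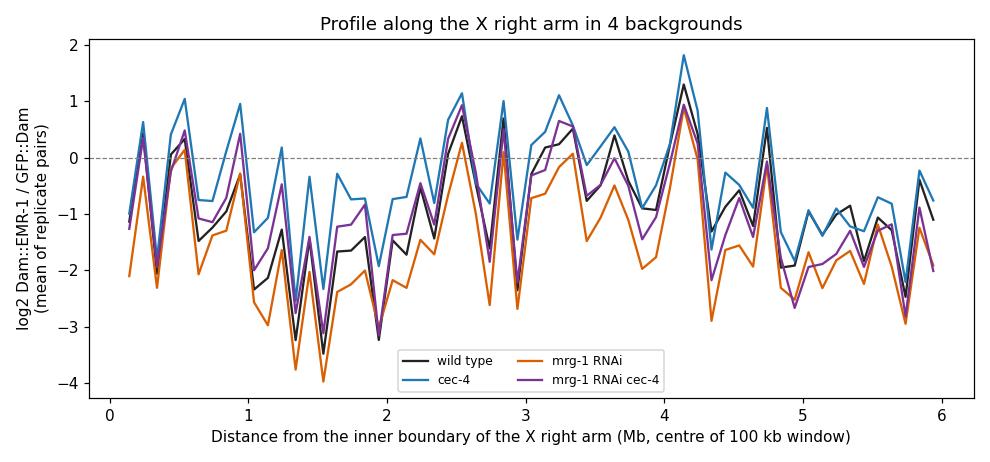
Log2 ratio of Dam::EMR-1 to GFP::Dam, as the mean of replicate pairs in 100 kb windows (y axis), against the distance from the inner boundary of the X right arm in Mb (x axis), 1 line per background. The lines share a valley between 1 and 2 Mb and a peak near 4 Mb, and 54 of the 59 windows had a fitted ratio below 0 with mrg-1 RNAi against 47 in wild type.

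Along the arm, in segments of 1 Mb numbered from the inner boundary, segment 2 was a valley and segment 4 stood highest. Segment 1 (11810001 to 12810000) had wild-type pair values of 0.02, −1.33 and −0.80, with 6 bins higher and 31 lower. Segment 2 (12810001 to 13810000) had −1.88, −2.39 and −2.18, with 0 bins higher and 56 lower, and all 3 pairs lay below every wild-type pair of the other 5 segments. It covers the genes mob-2, unc-9, ptr-24, odr-1 and pix-1. Segment 4 (14810001 to 15810000) was the least depleted in wild type, at 0.08, −0.60 and −0.15, with 20 bins higher and 22 lower. Segments 3 and 5 averaged −0.79 ± 0.38 and −0.70 ± 0.34 (SD, n = 3). The distal segment 6 (16810001 to 17718942), which ends at the telomere, stood at −1.03, −1.48 and −1.09, with 1 bin higher and 33 lower.

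The 100 kb windows give the same relief by gene neighbourhood. The highest window in wild type, at 15900001 with mrp-3, an ABC transporter gene of the multidrug resistance family, had a fitted log2 ratio of 1.17 ± 0.22 (SE, adjusted p = 7.61e-05, edgeR). The other window called higher started at 14600001 with rbc-1, at 0.56 ± 0.25 (SE, adjusted p = 0.0483, edgeR). The 3 lowest were those of ptr-24 at −3.72 ± 0.35, mob-2 at −3.44 ± 0.34 and pix-1 at −3.38 ± 0.32 (SE), all inside segment 2.

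Runs of at least 3 neighbouring bins called in the same direction lay mostly on the low side. A single run was higher in wild type, the 40 kb from 15880001 to 15920000 with gmeb-2 and npr-33, a predicted neuropeptide receptor. Its pair values were 1.599, 1.48 and 2.03 in wild type, 2.22, 1.25 and 1.497 in cec-4, 0.82 and 1.10 with mrg-1 RNAi, and 1.28, 1.26 and 1.38 in the combination. All pairs were above 0. Since the run was picked for its wild-type calls, the order of the other backgrounds is a description. There were 27 runs called lower, holding 125 bins, and they were picked out after their values were seen. The longest covered 140 kb from 13670001 to 13810000, with obr-3, adm-2, pix-1, nkb-3 (a beta subunit of the sodium-potassium ATPase) and nhr-71, at −3.20, −3.27 and −3.39 in the wild-type pairs. Those of 100 kb lay at 12430001, with the pharyngeal myosin gene myo-2 and the zinc transporter gene cdf-2 (mean −2.65 ± 0.38), and at 14730001, with the neuronal transcription factor gene unc-3 and epn-1 (−3.23 ± 0.74, SD, n = 3). An 80 kb run at 13930001 held alg-1, an Argonaute of the miRNA pathway, and elt-3, an epidermal GATA factor gene (−3.16 ± 0.41), and a 70 kb run at 13300001 held ptr-24 and 3 srd chemoreceptor genes (−4.49 ± 0.56, SD, n = 3).

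**Figure D3:**
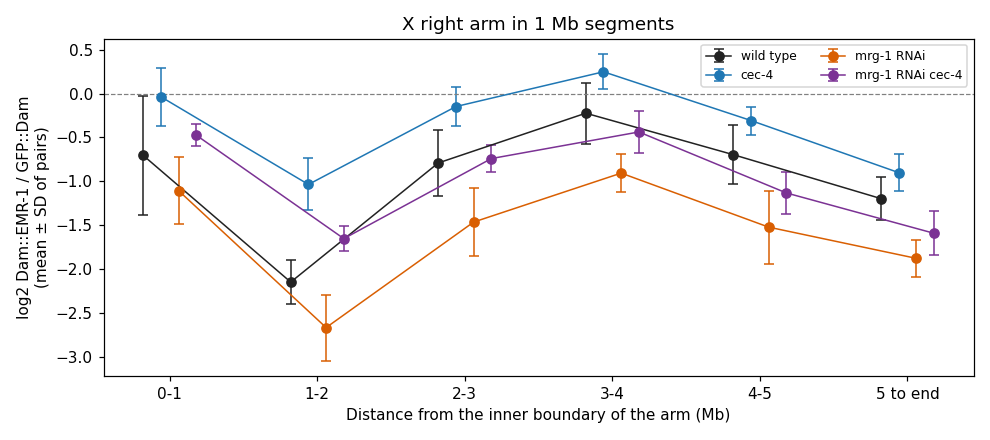
Log2 ratio of Dam::EMR-1 to GFP::Dam as mean ± SD of replicate pairs (y axis) in consecutive 1 Mb segments of the X right arm counted from the inner boundary (x axis), 1 line per background. Segment 2 is the lowest in every background (−2.15 in wild type, −1.04 in cec-4, −2.67 with mrg-1 RNAi, −1.66 in the combination) and segment 4 the highest.

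The 10 bins with the highest ratio in wild type that met the naming rule reached fitted log2 ratios of 1.84 to 2.31, and those with the lowest stood below −5. The top bin, at 14670001, holds slt-1, which encodes the axon guidance ligand Slit. Its pair values were 2.95, 1.81 and 2.51. Replicates 1, 2 and 3 held 235, 299 and 119 reads of Dam::EMR-1 and 93, 135 and 84 of GFP::Dam in it. All 3 pairs were above 0, and its fitted log2 ratio was 2.31 ± 0.63 (SE, adjusted p = 0.005, edgeR). In the other backgrounds slt-1 had fitted ratios of 1.46 in cec-4, 0.91 with mrg-1 RNAi and 0.82 in the combination, none of them called. The bin of ule-5, at 11880001 near the inner boundary, stood at 2.15 ± 0.49 (SE) and was called in all 4 backgrounds (2.15 in cec-4, 1.59 with mrg-1 RNAi and 1.78 in the combination). The bin of famk-1, a kinase gene of the secretory pathway, reached 2.14 ± 0.60 (SE) in wild type with uneven pairs of 2.93, 0.15 and 3.50, and had 0.12 with mrg-1 RNAi, which was not called.

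The other 7 highest bins ran from 1.84 to 2.12 in wild type. They held frpr-17 and npr-40, predicted neuropeptide receptors (2.12 each), exc-1, needed for the shape of the excretory canal (2.08), nhx-1, a sodium-proton exchanger (1.96), eat-20, a pharyngeal membrane protein (1.87), col-186, a collagen (1.86), and wrt-4, a hedgehog-related protein (1.84). The calls of frpr-17, npr-40 and col-186 depended on single libraries, since frpr-17 was called in 4 and the others in 5 of the 6 fits that left out 1 wild-type library. With mrg-1 RNAi the same 7 bins had fitted ratios from 0.33 for frpr-17 to 1.48 for nhx-1, and none was called higher. In cec-4 nhx-1, eat-20, wrt-4, col-186 and exc-1 were called, and in the combination frpr-17, nhx-1, eat-20 and wrt-4. The bins were picked as the highest in wild type, so lower values elsewhere can follow from that choice. No difference from wild type was called in any of these bins.

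The bin of cest-8, a carboxylesterase gene at 12210001, had 0, 3 and 0 reads of Dam::EMR-1 in wild type, and 150, 127 and 587 of GFP::Dam. Its share of Dam::EMR-1 reads was 0.0103 times its share of GFP::Dam reads (95% exact counting interval 0.00211 to 0.0301, which covers counting error only). The bin of aakb-1, a beta subunit of AMP-activated kinase, stood at −5.93 ± 1.10 (SE, adjusted p = 0.00032, edgeR), with pairs of −5.57, −4.70 and −5.75, and was called lower in all 4 backgrounds. So were those of ptr-24, a patched-related protein (−5.91), mob-2, a Mob kinase activator (−5.89), tps-1, a trehalose-phosphate synthase (−5.72), epn-1, the endocytic adaptor epsin (−5.48), and bcat-1, a branched-chain aminotransferase (−5.39). The bins of tag-343, fbxa-141 and kola-4 were called lower in every background too, and stood at −6.29, −5.62 and −5.41 in wild type.

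Gene content is given here as a description, with no test. The 221 bins with at most 1 protein-coding gene had a wild-type median of −0.55 with 21 higher and 71 lower, the 185 bins with 2 genes −1.05 with 9 higher and 75 lower, the 118 with 3 genes −0.70, the 48 with 4 genes −1.39, and the 19 with 5 or more genes −0.73. The 33 bins without any protein-coding gene had a median of −0.16. The 74 bins that overlap a tRNA gene had a median of −1.09, with 6 higher and 25 lower, close to the arm's 7.45% and 35.5%, against −0.77 for the 517 without one. The 62 bins with a pseudogene had −0.21 and the 54 with a piRNA gene −0.78, against −0.81 over the whole arm.

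The gene lists on the arm, given by the bin that holds most of each gene, fell on both sides of the arm's own median of −0.81. Their counts stand against 7.45% higher and 35.5% lower over the arm, and 25.4% and 29.0% over all bins. The receptor and ion channel list had the highest median, 0.40 in its 28 bins, with 4 higher and 5 lower. Its highest members were frpr-17 and npr-33 (1.69 ± 0.59, SE), and its lowest were lgc-25, a ligand-gated channel gene (−4.01 ± 0.74, SE), and npr-24 (−3.59 ± 0.76, SE). Neuropeptide genes followed with a median of 0.31 in 7 bins, of which 0 were higher and 2 lower, nlp-53 at −2.45 and nlp-76 at −1.88. The 13 chemoreceptor bins had a median of −0.73, with 0 higher and 2 lower, those of srd-42 at −3.26 and str-124 at −1.69. Of the 13, 5 had a fitted ratio above 0, not called, the highest being that of srd-40 at 1.52.

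Nuclear hormone receptor genes, a family of ligand-regulated transcription factors that is large in nematodes, were among the low lists. Their 15 bins had a median of −1.88, with 0 higher and 9 lower where 35.5% of the arm was lower, and the lowest were nhr-71 (pairs −5.50, −3.44 and −5.38) and nhr-32 (pairs −3.33, −4.10 and −5.36). The list was split, since 6 of the 15 bins had a fitted ratio above 0, not called, the highest being nhr-91 at 0.85. The miRNA list had a median of −1.92 in 17 bins, with 0 higher and 10 lower, against the same 35.5%. In 3 of the 17 bins the fitted ratio was above 0, not called, the highest being mir-233 at 1.00. The cluster mir-54, mir-55 and mir-56 shares a bin with pairs of −6.47, −4.60 and −7.07, with 71 reads of Dam::EMR-1 and 9292 of GFP::Dam over the 3 wild-type libraries of each fusion. The bin of let-7, a heterochronic miRNA, named after its values were seen, stood at −2.52 ± 0.83 (SE, adjusted p = 0.0152, edgeR), with uneven pairs of −4.03, −0.59 and −1.62.

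The lists of intestine function, the tissue in which the fusions were made, did not share a direction. The 5 bins of the intestine list had a median of −0.24, with nhx-1 higher and med-1, a GATA factor gene of endoderm specification, lower at −3.44 ± 1.24 (SE, adjusted p = 0.0251, edgeR), with 14 reads of Dam::EMR-1 and 345 of GFP::Dam. The 6 bins of glucuronosyltransferase and cytochrome P450 genes had a median of −1.98, with 0 higher and 2 lower. These were the bin of cyp-14A1 and cyp-14A2 (pairs −2.95, −4.49 and −4.47) and that of ugt-50 (pairs −2.56, −3.80 and −2.71). Membrane transport genes had a median of −1.43 in 10 bins, with 0 higher and 5 lower, the lowest being nkb-3 at −3.61 and mfsd-10 at −3.15.

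The remaining lists were small. Of 8 collagen bins 1 was higher, col-186, and 4 were lower, with col-185 lowest at −3.56. The 7 homeobox bins included 0 higher and 2 lower, with ceh-37 at −2.40, and the 6 F-box bins 0 higher and 2 lower, fbxa-141 and fbxb-114 (−3.20). Of 4 muscle bins, that of pat-9, a muscle transcription factor gene, was higher at 1.01 ± 0.38 (SE, adjusted p = 0.0305, edgeR) and that of myo-2 lower at −1.94. The bins of his-24, a linker histone H1, and hpl-1, an HP1 protein, were both lower, at −3.42 and −2.29. With mrg-1 RNAi the transport list had 7 of 10 bins lower, against 5 in wild type, where 34.5% of the arm and 21.1% of all bins were. No rule singled out this list, and no change between backgrounds was tested for any list. The arm held 0 genes of the C-type lectin list and 0 of the ribosome and proteasome list.

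**Figure D4:**
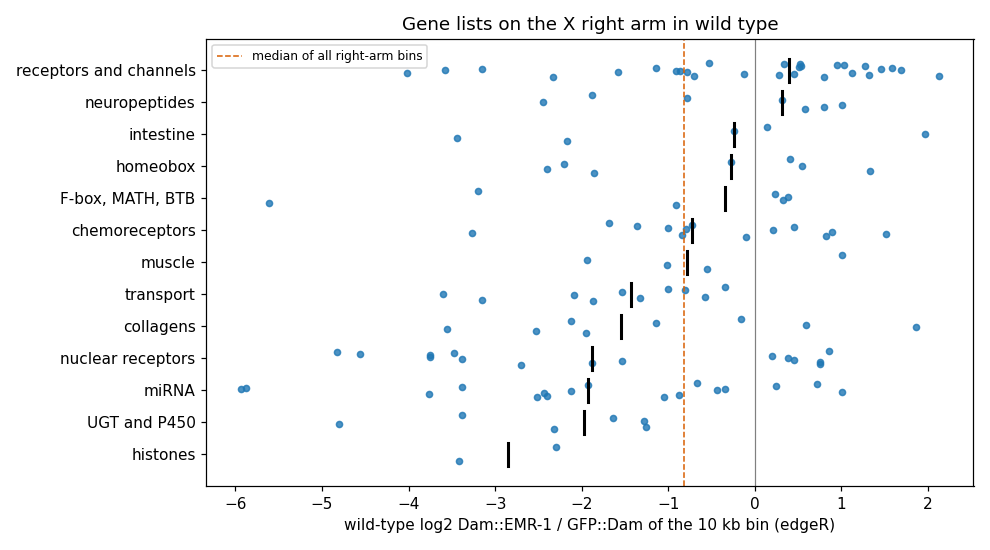
Fitted wild-type log2 ratio of Dam::EMR-1 to GFP::Dam (x axis) of each 10 kb bin that holds a listed gene of the X right arm, 1 row per gene list (y axis), with a bar at the median of each list and a dashed line at the arm's median of −0.81. Receptors and channels (median 0.40) and neuropeptides (0.31) lie highest, nuclear hormone receptors (−1.88), miRNA (−1.92), P450 and glucuronosyltransferase bins (−1.98) and the pair of histone and HP1 bins (−2.86) lowest.

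With mrg-1 RNAi the X right arm was lower than in wild type in the pairs that were measured, and of the 18 chromosome parts it had the most negative difference. The arm was chosen with earlier results of these data known. This rank and the p-values of the mrg-1 RNAi differences below are therefore a description and no independent support. Over the arm the mrg-1 RNAi pair values were −1.35 for replicate 2 and −1.82 for replicate 3, a mean of −1.59 ± 0.33 (SD, n = 2), against −0.61, −1.35 and −0.92 in wild type. The highest mrg-1 RNAi pair lay just under the lowest wild-type pair. The difference was −0.63 ± 0.28 (SE, limma over 18 parts and 5 contrasts, adjusted p = 0.104, and 0.142 with the arm's own spread), which was not called, and the exact permutation p was 0.2, where 3 pairs against 2 cannot go below 0.1. Within replicate numbers it was −0.0063 for replicate 2 and −0.91 for replicate 3.

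Relative to the rest of the genome the separation was wider. In a measure added after seeing the data, with the mean of all nuclear bins of the same pair subtracted, the arm stood at −0.68, −0.63 and −0.56 in wild type and at −0.98 and −1.39 with mrg-1 RNAi, which do not overlap. The centred difference was −0.56, also the most negative of the 18 parts, with an exact permutation p of 0.2, the smallest possible here. By limma its adjusted p was 0.00374 (0.0249 with the arm's own spread), and that of the difference from reads summed over the arm, −0.61, was 0.0179 (0.0317 with the arm's own spread). Within replicate numbers the centred difference was −0.34 and −0.83. The X left arm and X centre had differences from wild type of −0.26 ± 0.28 and −0.27 ± 0.28 (SE, adjusted p = 0.665 and 0.656, limma). The right arm stood below the left arm by −0.43 and −0.70 with mrg-1 RNAi, against −0.0065, −0.40 and −0.17 in wild type, without overlap (exact permutation p = 0.2, again the smallest possible).

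The shares of reads were separated in Dam::EMR-1 and overlapped in GFP::Dam. The right arm took 3.31%, 3.18% and 3.26% of the nuclear reads of Dam::EMR-1 in wild type replicates 1, 2 and 3, and 2.55% and 1.66% with mrg-1 RNAi replicates 2 and 3. GFP::Dam gave the arm 5.41%, 6.03% and 5.43% in wild type and 5.86% and 5.02% with mrg-1 RNAi, so the groups overlapped. Within replicate numbers the GFP::Dam share was lower with mrg-1 RNAi in both pairs, by −0.17 and −0.42 percentage points, and the Dam::EMR-1 share by −0.63 and −1.599. The Dam::EMR-1 share was thus lower in both mrg-1 RNAi libraries than in the 3 of wild type, with a difference of means of −1.15 percentage points and an exact permutation p of 0.2. Without replicate 3 of mrg-1 RNAi the difference was −0.70. In GFP::Dam the libraries of replicate 2 had the highest share in each background, at 5.86% to 6.03%.

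**Figure D5:**
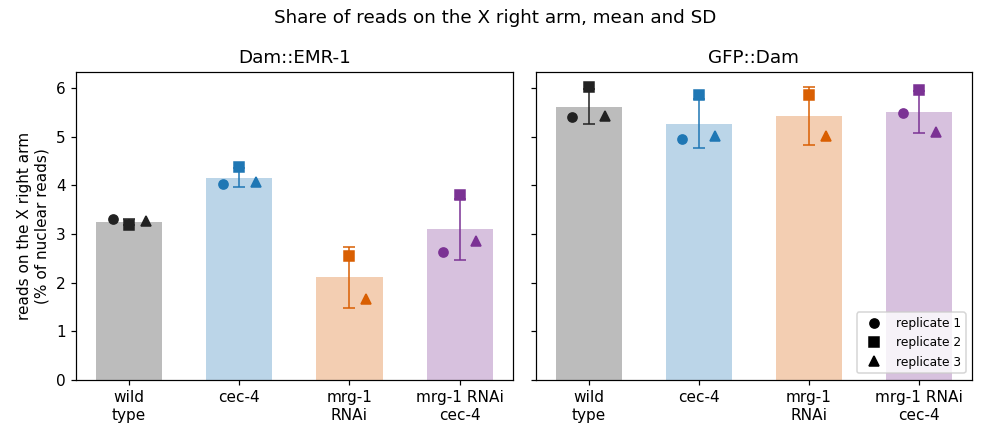
Reads on the X right arm as a percentage of nuclear reads per library (y axis, from 0) for Dam::EMR-1 and GFP::Dam in the 4 backgrounds (x axis), with bars for the mean, error bars for the SD and a marker shape per replicate number. Dam::EMR-1 libraries range from 1.66% with mrg-1 RNAi to 4.39% in cec-4, while GFP::Dam libraries stay between 4.96% and 6.03%.

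The mean difference with mrg-1 RNAi was below 0 in every segment of the arm, but that within replicate 2 was not. The difference of group means from wild type was −0.40, −0.52, −0.67, −0.68, −0.83 and −0.68 in the 6 segments from the inner boundary to the telomere, and the pairs did not overlap in segments 2, 4, 5 and 6. Within replicate 2 it was 0.50, −0.013, 0.023, −0.15, −0.16 and −0.25. Within replicate 3 it was −0.57, −0.76, −1.06, −0.91, −1.195 and −0.95. Of 59 windows of 100 kb, 57 had a point estimate below wild type. In 27 of them (45.8%) both mrg-1 RNAi pairs lay below all 3 wild-type pairs, where 8.07% of all windows did so, and after centring 27 did against 9.26%. In 0 arm windows did both pairs lie above, against 10.5% of all. A single mrg-1 RNAi pair of 2 decides part of this count, since 34 arm windows were below with replicate 2 alone (20.5% of all windows) and 43 with replicate 3 alone (25.0%).

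No bin or window of the arm passed the test of that difference on its own. By edgeR 0 of 591 bins (0.0% of all tested bins) and 0 of 59 windows (0.0% of all) were called between mrg-1 RNAi and wild type, and DESeq2 called 0 of each on the arm. At an unadjusted p below 0.05 there were 9 arm bins, of 188 among all 9960 tested, and 5 arm windows, of 53 among all 1004. Without Dam::EMR-1 of mrg-1 RNAi replicate 2 edgeR called 3 bins lower. The windows with the most negative difference were those of ndrr-2 at −1.58 ± 0.71, gpn-1, a glypican gene, at −0.91 ± 0.46, and dyc-1, a muscle adaptor gene, at −0.88 ± 0.41 (SE). At gpn-1 the pairs were −0.49, −1.20 and −1.01 in wild type and −1.76 and −2.19 with mrg-1 RNAi, which do not overlap. At dyc-1 they were −0.24, −0.71 and −0.64 against −0.72 and −2.19, and at ndrr-2 −2.31, −1.45 and −0.18 against −1.97 and −3.82, which overlap. The least negative windows were pix-1 (0.34 ± 0.46), nhr-27 (0.10 ± 0.50) and scd-1 (−0.04 ± 0.37, SE), all in the inner part of the arm.

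Against GFP::Dam, few arm bins were higher. With mrg-1 RNAi 5 arm bins were higher and 204 lower, where 18.5% and 21.1% of all bins were, with a median fitted ratio of −1.30 against −0.06 for all bins. At 100 kb 1 window was higher and 46 lower, where 32.9% and 36.4% of all windows were. Without Dam::EMR-1 or GFP::Dam of replicate 3 the count of lower bins was 107 and 112, and that of higher bins 1 and 0. Without GFP::Dam of replicate 2 it was 1, and with the replicate block 19 bins were higher. The last 200 kb of X stood at −1.79 ± 0.37 (SD, n = 2) with mrg-1 RNAi and −0.95 ± 0.51 (SD, n = 3) in wild type, and its ranges of −2.05 to −1.53 and −1.52 to −0.57 narrowly did not overlap. A lower mean was not particular to X. The same length of chromosomes I, II, III, IV and V stood at −0.52, 0.69, −0.22, −0.205 and 0.28 with mrg-1 RNAi. In wild type it stood at −0.32, 1.08, −0.03, 0.22 and 0.47, with overlapping ranges. All receptor and channel bins together had a median of −0.20 with mrg-1 RNAi, with 0 higher and 5 lower.

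In cec-4 mutants the X right arm had the highest ratios of the 4 backgrounds. Its pair values were −0.42, −0.54 and −0.11, a mean of −0.36 ± 0.23 (SD, n = 3), all above the highest wild-type pair of −0.61. The difference from wild type was 0.60 ± 0.25 (SE, limma, adjusted p = 0.0833, and 0.134 with the arm's own spread), which was not called, and the exact permutation p was 0.1, the smallest that 3 against 3 pairs can give. Within replicate numbers the difference was between 0.19 and 0.81. From reads summed over the arm it was 0.45 (limma adjusted p = 0.0433, and 0.0511 with the arm's own spread), and without wild-type pair 1 it was 0.78 (0.00701 and 0.0697), so both calls ended with the arm's own spread. Centred on the genome mean the difference was 0.22, since the genome mean of the same pairs was also higher. It was not called (adjusted p = 0.23, limma with the arm's own spread), though the groups still did not overlap.

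The X centre had a larger difference from wild type, 1.21 ± 0.25 (SE, adjusted p = 6.7e-05, limma, and 0.0121 with its own spread). A higher ratio was not particular to the right arm among the X arms. The X left arm differed by 0.44 ± 0.25 (SE, adjusted p = 0.222, limma), also without overlap of pairs. The right arm minus the left arm differed from wild type by 0.16, with overlapping pairs (exact permutation p = 0.3). The right arm exceeded the X centre by 1.40 ± 0.20 in wild type and by 0.79 ± 0.06 in cec-4 (SD, n = 3), with no overlap (exact permutation p = 0.1). Of the Dam::EMR-1 reads, the arm took 4.02%, 4.39% and 4.08% in cec-4, all above wild type, and the GFP::Dam share was 4.96%, 5.86% and 5.02%, which overlapped wild type but was lower in all 3 replicate numbers, by −0.18 to −0.45 percentage points. By segment the difference was 0.67 in segment 1, 1.11 in segment 2 and then 0.64, 0.47, 0.39 and 0.30 out to segment 6. The pairs were free of overlap in segments 2 and 3.

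In cec-4, 57 arm bins were higher than GFP::Dam and 148 lower, where 21.1% and 20.3% of all bins were, with a median of −0.39 against 0.17 for all bins. The replicate block gave 96 higher bins, and leaving out Dam::EMR-1 of replicate 1 or GFP::Dam of replicate 1 or 3 gave 30, 36 and 34. At 100 kb 7 windows were higher and 32 lower, where 33.1% and 32.9% of all were. Between cec-4 and wild type edgeR called 0 arm bins (0.0% of all) and 0 arm windows, where 5.68% of all windows were called, 4.58% higher and 1.1% lower. At an unadjusted p below 0.05 there were 18 arm bins, of 551 among all 9960 tested, and 14 arm windows, of 292 among all 1004. DESeq2 called 0 arm bins and 0 arm windows. With the replicate block edgeR called 9 arm windows higher, and without GFP::Dam of cec-4 replicate 2 it called 4. The windows with the most positive difference lay in or beside the valley, at npr-10 (1.33 ± 0.45, adjusted p = 0.0687), sad-1, a presynaptic kinase gene (1.29 ± 0.45, adjusted p = 0.0769), and pix-1 (1.22 ± 0.42, SE, adjusted p = 0.0703, edgeR). At npr-10 the pairs were 0.27, −0.27 and 0.53 in cec-4 against −1.04, −1.76 and −1.03 in wild type, without overlap. In 18 arm windows (30.5%) all cec-4 pairs lay above all wild-type pairs, near the 29.0% of all windows, and in 0 all lay below, against 7.87%. The first count was 32 without wild-type pair 1 (42.2% of all windows) and 29 without cec-4 pair 2 (37.4%).

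In the combination the X right arm was lower than in cec-4 alone and close to wild type. The pair values were −1.02, −0.82 and −1.15, a mean of −0.997 ± 0.16 (SD, n = 3), all below the cec-4 pairs and inside the range of wild type. The difference from cec-4 was −0.64 ± 0.25 (SE, limma, adjusted p = 0.0577, and 0.12 with the arm's own spread) with an exact permutation p of 0.1, the smallest possible, and −1.04 to −0.28 within replicate numbers. By limma the adjusted p was 0.0116 for the difference centred on the genome mean, −0.42 (0.0455 with the arm's own spread), and 0.0231 for that from summed reads, −0.51 (0.0345 with the arm's own spread). The difference from wild type was −0.04 ± 0.25 (SE, adjusted p = 0.9, limma) and that from mrg-1 RNAi alone 0.59 ± 0.28 (SE, adjusted p = 0.115, limma).

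The test of whether the mrg-1 RNAi difference itself differed between the wild-type and cec-4 genotypes gave a value near 0 on the arm. The difference with mrg-1 RNAi, not called in either genotype, was −0.63 in the wild-type genotype and −0.64 in cec-4, from groups with no shared samples. The interaction was −0.01 ± 0.38 (SE, unadjusted p = 0.976, limma), an error that leaves room for differences of similar size to the effects themselves. In cec-4 the X centre (−0.68 ± 0.25, adjusted p = 0.0419, limma, and 0.095 with its own spread) had a more negative difference than the right arm, and the left arm had −0.56 ± 0.25 (SE, adjusted p = 0.104, limma).

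The difference of the combination from cec-4 was spread along the arm. It was −0.44, −0.62, −0.59, −0.69, −0.83 and −0.69 in the 6 segments, with no overlap of pairs in any of them. In 29 of 59 windows (49.2%) all combination pairs lay below all cec-4 pairs, where 12.3% of all windows did, and after centring in 20 against 7.77%. edgeR called 0 arm bins and 0 arm windows (0.0% of all for both), and DESeq2 called 0 of each. At an unadjusted p below 0.05 there were 7 arm bins, of 80 among all 9960 tested, and 6 arm windows, of 39 among all 1004. The most negative windows were pix-1 (−1.07 ± 0.41), cgt-2 at the end of the chromosome (−1.07 ± 0.61) and sgk-1, a serum- and glucocorticoid-inducible kinase gene (−0.97 ± 0.35, SE). At sgk-1 the pairs were −1.23, −0.99 and −1.90 in the combination and −0.13, −0.61 and −0.05 in cec-4, without overlap.

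The distal segments of the combination lay nearer to mrg-1 RNAi and the inner ones nearer to wild type. In segment 2 its pairs (−1.65, −1.52 and −1.80) were all above those of wild type, while in segment 6 they were −1.85, −1.35 and −1.58 and overlapped wild type. Against mrg-1 RNAi alone the difference was 1.01 in segment 2 and 0.29 in segment 6, where the pairs overlapped. In 27 arm windows (45.8%) all combination pairs lay above both mrg-1 RNAi pairs, where 27.2% of all windows did, and after centring in 12 against 17.7%. The first count was 44 without mrg-1 RNAi pair 2 (39.9% of all) and 41 without combination pair 1 (31.4%).

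Against GFP::Dam, 31 arm bins of the combination were higher and 201 lower, where 23.7% and 22.9% of all bins were. The replicate block gave 55 higher bins, and without Dam::EMR-1 of replicate 3 or GFP::Dam of replicate 1, 2 or 3 there were 16, 20, 15 and 17. Of its 59 windows 2 were higher and 39 lower, where 33.6% and 35.0% of all were. edgeR called 0 arm bins between the combination and wild type (0.0% of all) and between it and mrg-1 RNAi (0.0%). At an unadjusted p below 0.05 there were 4 and 20 arm bins, of 732 and 304 among all 9960 tested. At 100 kb it also called 0 in both, where 17.4% (12.5% higher and 4.98% lower) and 0.199% of all windows were called. There, 1 and 9 arm windows had an unadjusted p below 0.05, of 304 and 135 among all 1004. DESeq2 called 0 in these comparisons except 1 window lower than in wild type, and the replicate block also gave 1. The window with sto-5, a stomatin gene, had the smallest adjusted p of the combination against wild type, at −0.95 ± 0.34 (SE, adjusted p = 0.0572, edgeR), with pairs of −2.25, −1.52 and −2.05 against −0.64, −1.21 and −1.01.

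Over the 591 bins the mean pair values of any pair of backgrounds correlated with Pearson r of 0.883 to 0.925, as a description of bins that share the same sequence in each background. The authors' deposited table, which gives 1 log2 ratio per bin and background, put the arm's median at −0.41 in wild type, −0.02 in cec-4, −1.32 with mrg-1 RNAi and −0.69 in the combination. There, 248, 295, 141 and 221 of the 591 arm bins were above 0, in the same order. The medians over all bins of that table also differed between backgrounds, at 0.28 in wild type, 0.56 in cec-4, 0.0 with mrg-1 RNAi and 0.28 in the combination. Part of the differences on the arm was thus shared with all bins.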

How the data were processed

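The deposited tables give a raw count of reads in bins of 1, 10 and 100 kb, for 22 libraries. The deposited log2 table at 10 kb holds, per background, a log2 ratio of Dam::EMR-1 to GFP::Dam made by the authors. The build is ce11 per the submitters' processing notes. The aligner is not given in the sources consulted, and neither is the handling of repeats. Per the labels' protocols, 200 ng of DNA was cut with DpnI and methylated fragments were amplified by PCR, without molecular identifiers, so intervals cover counting error only.

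Mitochondrial bins were left out. Counts were fitted in R 4.3.3 with edgeR 4.0.16 (TMM, filterByExpr, quasi-likelihood, all 22 libraries as 8 groups), with Benjamini-Hochberg adjustment over all tested bins and calls at 0.05. A contrast of backgrounds is the difference of their log2 ratios. DESeq2 1.42.0 was an alternative, and limma 3.58.1 tested the 18 chromosome parts in 5 contrasts together (90 tests). The spread was shared over the parts, in full or in part, and a further fit used the spread of each part alone. Pair values used CPM with a pseudocount of 1, and a single value was compared by permuting pairs exactly, two-sided. The steps were tested on simulated data for cec-4 against wild type, mrg-1 RNAi against wild type and the combination against cec-4. Of 50 bins of 10 kb given a log2 change of 1, 0 were called in each. Of 50 such windows of 100 kb, 11, 10 and 19 were called. At a log2 change of 3, 4, 2 and 14 of 50 bins were called, and at 5, 35, 22 and 29. At 100 kb a log2 change of 2 gave 43, 43 and 46 of 50 windows. All sizes were planted together in each run, and 4, 8 and 10 unchanged windows were also called. A count of 0 called bins therefore does not show that log2 changes of 3 or smaller are absent. A count of 0 called windows does not show it for a change of 1 or smaller. The labels say that the strains of each replicate were raised side by side, so equal numbers mark pairs. Within each fusion, each library's deviation from its group mean was correlated with that of the same-numbered libraries of the other backgrounds. There, r was over 0.1 in 15 of 15 GFP::Dam comparisons (lowest 0.43) and 12 of 15 Dam::EMR-1 comparisons (lowest −0.22). Dam::EMR-1 was not compared with GFP::Dam, nor were libraries of different numbers compared. The check therefore cannot test the pairing of Dam::EMR-1 with GFP::Dam, which rests on the labels.

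The arm, the gene lists and the rules were chosen with earlier results of these data known. Named bins are the 10 highest and 10 lowest called bins in wild type, with all pairs on 1 side of 0 and at most 1 per 100 kb. Further named were the 3 windows with the largest difference each way per contrast, the 2 highest and 2 lowest members per list, and the runs of higher bins. Not all of these windows and list members are printed. Each bin is named for the coding gene that covers most of it, among those with standard symbols. Alternatives were library-size scaling, DESeq2, no filter, replicate blocks, other pseudocounts, centring, summed reads, another arm boundary and the omission of single libraries or pairs. Added after seeing the data were the measure relative to the genome mean, the interaction test, the spread of each part alone, counts of windows without overlap, runs called lower, the last 200 kb and the gene-content classes. Gene names and positions came from the RefSeq table of assembly WBcel235, and no sequence was used.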

Additional observations from a re-analysis of the deposited data

How the results depend on the processing

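Of 737 alternative values for the results on the X right arm, 674 were labelled the same. For counts this meant within 1.5 times of the reported count, and many of these were counts of 0 that stayed 0. For the limma differences of the arm it meant the same sign and the same side of the threshold. For differences between parts and shares of reads it meant the same sign only. Lower counts stayed within 1.5 times in every alternative except with mrg-1 RNAi, where leaving out a library gave 107 to 200 of 204. Higher counts were less stable: leaving out a library gave 20 to 35 in wild type (29, 27 and 20 without GFP::Dam replicate 1, 2 and 3), 30 to 55 in cec-4, 0 to 5 with mrg-1 RNAi and 15 to 30 in the combination. The 6 wild-type libraries alone gave 26, and library-size scaling gave 0 higher bins with mrg-1 RNAi. That scaling moved the genome median of the ratio by 0.15 in wild type and 0.20 in cec-4, and that of mrg-1 RNAi against wild type by −0.10 and of the combination against cec-4 by −0.12. The causes were not tested.

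With the replicate number as a block, in the pairing by number, the higher bins were 78 in wild type, 96 in cec-4, 19 with mrg-1 RNAi and 55 in the combination. At 100 kb the block called 9 windows higher in cec-4 against wild type and 1 lower in the combination against wild type, where DESeq2 also called 1. The block changed no other call.

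Leaving out a library gave 0 to 3 bins lower with mrg-1 RNAi against wild type (3 without Dam::EMR-1 mrg-1 RNAi replicate 2), 0 to 2 bins and 0 to 1 window higher in the combination against mrg-1 RNAi without the same library, 0 to 4 windows higher in cec-4 against wild type (4 without GFP::Dam cec-4 replicate 2), and 0 to 1 window lower in the combination against wild type.

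For the arm's pair values, leaving out a pair gave 0.41 to 0.78 for cec-4 against wild type and −0.87 to −0.39 for mrg-1 RNAi against wild type (−0.82 and called without wild-type pair 2, adjusted p = 0.00642, limma, −0.39 without mrg-1 RNAi pair 3). Summed reads gave 0.45, −0.61, −0.51 and 0.55 for cec-4 against wild type, mrg-1 RNAi against wild type, the combination against cec-4 and the combination against mrg-1 RNAi, each now called, and centring gave −0.56, −0.42 and 0.36 for the last 3, also called, although the centred pairs of the last overlapped (exact permutation p = 0.4). An arm starting 1 Mb further out gave −0.68 for the combination against cec-4, called. With the spread of the arm alone, added after seeing the data, the calls ended for summed reads in cec-4 against wild type (adjusted p = 0.0511), for centring in the combination against mrg-1 RNAi (0.104), for the shifted arm (0.0887) and without wild-type pair 2 (0.0637, limma), while the other summed and centred calls held (0.0249 to 0.0455). The combination against wild type changed sign, from −0.04 to 0.0325 with TMM library sizes and from −0.23 to 0.13 over the left-out pairs.

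Values near 0 reversed elsewhere. The right arm minus the X centre gave −0.0074 for the combination against cec-4 with the arm starting 1 Mb further out, and the right arm minus the left arm gave −0.0244 to 0.17 for the combination against wild type over the left-out pairs. Left-out libraries gave −0.51 to 0.08 percentage points for the Dam::EMR-1 share of the combination against wild type. For the GFP::Dam share they gave −0.61 to 0.24 for mrg-1 RNAi against wild type, −0.33 to 0.10 for the combination against wild type and −0.35 to 0.50 for the combination against mrg-1 RNAi. At 1 kb, 16.5% to 61.6% of arm bins held no reads, so no contrast was made at that size.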
